A study of Homo sapiens with 19 samples.

Results

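H3K27ac, the acetylation of lysine 27 of histone H3 that marks active promoters and enhancers, was compared between Molm13 and OCI-AML3, the pair of acute myeloid leukaemia (AML) lines whose marked genes were most alike. Members were chosen by the measured peak lists themselves. A protein-coding gene was a member when one of its annotated transcription start sites (TSSs) lay within 500 bp of a peak in 1 list and in the other list did not, or when it was among the genes with the largest difference in the number of peaks within 50 kb of the gene. This gave 1334 of 19970 genes on chromosomes 1 to 22 and X. Of these, 263 had a TSS marked in Molm13 only and 1013 in OCI-AML3 only, 26 had the most extra Molm13 peaks and 35 the most extra OCI-AML3 peaks, with 3 genes in both kinds. Over all genes tested, 1.32% were marked in Molm13 only and 5.07% in OCI-AML3 only. These shares follow from the rule and are descriptions, as are the enrichment values of the peaks that marked the members.

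Histone marks were profiled by chromatin immunoprecipitation in human leukaemia lines, and the 4 H3K27ac peak lists of lines with no targeting guide are used here. The Molm13 and HL-60 cells (both AML) were not transduced. The OCI-AML3 cells (AML) and the K562 cells (chronic myeloid leukaemia in blast crisis) had received a lentiviral vector for dCas9-KRAB-mCherry, a catalytically dead Cas9 fused to a repressor domain, and an empty guide vector with a BFP reporter, and had been sorted for both reporters. Each line was represented by 1 library, so there is no replicate check and no test between lines, and the vector and the line cannot be told apart. Read depth was not given in the lists. A fold enrichment of a peak is its ratio over the local background in its own library, and folds were compared within a list only.

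As background, HOX genes encode homeobox transcription factors that keep blood progenitors immature. Leukaemias with a KMT2A fusion, such as Molm13, are known for an active HOXA cluster, and those with an NPM1 mutation, such as OCI-AML3, for active HOXA and HOXB clusters. Promoters of interferon response genes typically hold binding sites of interferon regulatory factors (IRFs), and many promoters of broadly active genes are rich in CpG, the dinucleotide at which DNA can be methylated.

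The name of the comparison held in the data. The 2 lists marked 10794 (54.1%, Molm13) and 11544 (57.8%, OCI-AML3) genes, of which 10531 were shared, or 89.2% of the genes marked in either. The other 5 pairs of lines differed in 2559 to 3535 genes, against 1276 here. The HL-60 list was the shortest, at 20733 peaks, against 35069 (Molm13), 37531 (OCI-AML3) and 37424 (K562). The part of list length in the differences between pairs was not tested. Both lines carried the marks of myeloid cells, with 9 of 10 myeloid marker genes marked in both lists and ITGAM in OCI-AML3 only. None of 7 T cell markers and 1 of 12 erythroid markers were marked in both, and 20 of 20 housekeeping genes were.

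Promoter sequence was not used to choose the members, and 10 windows are shown for what such promoters hold. They are RefSeq windows of 300 bases on GRCh38.p14, 5′ to 3′ in the direction of the gene, from 250 bases before to 50 bases after a start site. The first 6 belong to interferon response genes marked in OCI-AML3 only, and the capitals mark matches to the IRF motif, 2 copies of GAAA with 2 bases between them, on either strand.
IFI6, chr1:27672143-27672442, minus strand: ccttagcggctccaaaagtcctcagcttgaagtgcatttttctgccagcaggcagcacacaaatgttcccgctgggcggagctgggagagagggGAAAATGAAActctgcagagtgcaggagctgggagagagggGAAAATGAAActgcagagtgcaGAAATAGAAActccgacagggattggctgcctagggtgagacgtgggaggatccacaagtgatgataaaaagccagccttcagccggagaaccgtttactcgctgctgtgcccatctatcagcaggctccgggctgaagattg
IFIT1, chr10:89392373-89392672, plus strand: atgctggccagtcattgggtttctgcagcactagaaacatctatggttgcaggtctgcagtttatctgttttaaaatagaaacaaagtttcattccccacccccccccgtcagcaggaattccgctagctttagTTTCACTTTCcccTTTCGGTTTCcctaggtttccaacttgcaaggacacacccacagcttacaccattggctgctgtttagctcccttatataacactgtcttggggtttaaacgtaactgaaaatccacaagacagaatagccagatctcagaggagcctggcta
IFIT3, chr10:89327747-89328046, plus strand: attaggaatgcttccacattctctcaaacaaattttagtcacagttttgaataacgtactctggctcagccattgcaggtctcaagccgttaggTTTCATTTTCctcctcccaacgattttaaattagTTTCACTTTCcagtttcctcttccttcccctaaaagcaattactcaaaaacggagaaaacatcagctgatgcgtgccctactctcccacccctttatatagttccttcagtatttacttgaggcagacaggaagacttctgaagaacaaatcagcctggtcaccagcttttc
IFIT5, chr10:89414318-89414617, plus strand: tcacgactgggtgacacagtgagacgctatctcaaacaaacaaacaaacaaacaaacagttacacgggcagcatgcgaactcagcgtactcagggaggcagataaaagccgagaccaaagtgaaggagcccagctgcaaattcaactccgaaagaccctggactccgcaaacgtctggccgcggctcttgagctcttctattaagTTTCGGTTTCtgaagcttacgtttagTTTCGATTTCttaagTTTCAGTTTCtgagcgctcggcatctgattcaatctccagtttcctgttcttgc
MX1, chr21:41420308-41420607, plus strand: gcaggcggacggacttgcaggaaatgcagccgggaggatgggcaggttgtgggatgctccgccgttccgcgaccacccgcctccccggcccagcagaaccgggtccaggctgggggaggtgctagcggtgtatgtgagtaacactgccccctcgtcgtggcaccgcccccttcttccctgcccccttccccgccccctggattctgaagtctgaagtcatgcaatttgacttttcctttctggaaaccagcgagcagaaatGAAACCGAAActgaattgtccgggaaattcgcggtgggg
GBP4, chr1:89198893-89199192, minus strand: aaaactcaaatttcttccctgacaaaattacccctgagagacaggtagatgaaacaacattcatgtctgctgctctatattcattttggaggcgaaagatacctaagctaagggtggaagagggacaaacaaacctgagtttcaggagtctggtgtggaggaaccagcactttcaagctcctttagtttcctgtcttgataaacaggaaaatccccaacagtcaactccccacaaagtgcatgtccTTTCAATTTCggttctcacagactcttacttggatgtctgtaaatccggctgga
The OCI-AML3 peak covered all 300 bases of the IFI6, IFIT3 and MX1 windows, 262 of IFIT5, 59 of GBP4 and 52 of IFIT1, and no Molm13 peak reached any of the 6. The start site of the window was not always the marked TSS, and lay 690 bp from it in IFIT3, 279 bp in MX1 and 77 bp in IFIT1. The next 4 windows show the range in CpG, set in capitals, among members of both directions. LILRB2 and NBDY were marked in Molm13 only, ITGAM and IGF1R in OCI-AML3 only.
LILRB2, chr19:54280579-54280878, minus strand: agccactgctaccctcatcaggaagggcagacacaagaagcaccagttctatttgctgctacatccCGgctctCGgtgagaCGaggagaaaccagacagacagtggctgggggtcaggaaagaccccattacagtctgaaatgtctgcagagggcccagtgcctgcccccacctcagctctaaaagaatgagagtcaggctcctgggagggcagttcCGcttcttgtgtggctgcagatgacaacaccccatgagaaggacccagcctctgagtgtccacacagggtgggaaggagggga
NBDY, chrX:56728993-56729292, plus strand: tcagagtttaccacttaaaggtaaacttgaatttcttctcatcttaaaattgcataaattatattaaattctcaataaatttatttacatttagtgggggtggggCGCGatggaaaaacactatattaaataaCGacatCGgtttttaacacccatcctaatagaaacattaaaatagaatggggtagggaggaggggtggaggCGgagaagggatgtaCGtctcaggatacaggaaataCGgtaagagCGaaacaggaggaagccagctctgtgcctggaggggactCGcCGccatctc
ITGAM, chr16:31259725-31260024, plus strand: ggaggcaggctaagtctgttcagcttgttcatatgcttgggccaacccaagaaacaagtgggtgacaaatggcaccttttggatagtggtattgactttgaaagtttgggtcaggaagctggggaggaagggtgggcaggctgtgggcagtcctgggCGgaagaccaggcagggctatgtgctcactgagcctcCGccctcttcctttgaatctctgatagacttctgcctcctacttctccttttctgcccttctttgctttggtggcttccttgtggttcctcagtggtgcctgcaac
IGF1R, chr15:98648289-98648588, plus strand: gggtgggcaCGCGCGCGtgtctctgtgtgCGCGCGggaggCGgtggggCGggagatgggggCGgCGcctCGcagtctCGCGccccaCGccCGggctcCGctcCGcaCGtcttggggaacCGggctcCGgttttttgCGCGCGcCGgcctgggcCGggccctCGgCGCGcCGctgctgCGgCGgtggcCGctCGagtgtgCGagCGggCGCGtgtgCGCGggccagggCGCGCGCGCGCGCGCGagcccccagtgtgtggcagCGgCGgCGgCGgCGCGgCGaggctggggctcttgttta
The LILRB2 window held 4 CpG and that of ITGAM 2, against 55 in IGF1R. For LILRB2 the start site of the window lay 167 bp from the marked TSS.

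Windows at the 5′ ends of Molm13-only genes were poorer in CpG than those of OCI-AML3-only genes. The same window of 300 bases was read from hg38 around the annotated 5′ end of every gene. The observed CpG number relative to that given by the C and G content had a median of 0.507 in the 263 Molm13-only genes and 0.738 in the 1013 OCI-AML3-only genes, beside 0.81 for genes marked in both lists, 0.395 for genes marked in neither and 0.697 for all genes. The ratio was below 0.6 in 55.1% of Molm13-only windows (Wilson 95% interval 49.1 to 61.0%), 37.9% of OCI-AML3-only windows (35.0 to 40.9%), 24.2% of windows marked in both and 64.1% of those marked in neither. The window is not always at the marked TSS, since 166 of the 263 and 792 of the 1013 genes had the same status at the 5′ end alone. With the status of every gene judged at its 5′ end, the shares were 62.2% (56.0 to 68.0%) of 246 Molm13-only and 31.9% (29.1 to 34.8%) of 1051 OCI-AML3-only windows, beside 17.5% for both and 65.6% for neither. The intervals cover counting error only, and genes that share a peak or a promoter are not independent.

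Of 12 short motifs searched on both strands, the GC box GGGCGG was found in 47.1% of Molm13-only windows (41.2 to 53.2%), 62.6% of OCI-AML3-only windows (59.6 to 65.5%) and 52.4% of all windows. The GATA motif AGATAA went the other way, at 13.3% (9.73 to 17.9%) and 6.71% (5.33 to 8.42%), with 8.69% over all. Genes marked in both lists held the GC box in 62.1% and the GATA motif in 6.15% of windows. Those marked in neither held them in 38.8% and 12.1%, so in these windows Molm13-only genes lay nearer to the latter for both motifs. In RefSeq windows this held for the GATA motif, at 11.5%, beside 4.58% for both and 11.7% for neither. It did not hold there for the GC box, at 59.4%, nearer to the 70.0% for both than to the 42.7% for neither. The ETS motif GGAAG stood at 69.2% (63.4 to 74.5%) and 67.9% (65.0 to 70.7%), with 71.8% over all, and these intervals overlapped. In RefSeq windows it stood at 77.6% (71.2 to 82.9%) and 68.6% (65.3 to 71.8%), with 74.1% over all. Those intervals overlapped only narrowly. The IRF motif was rare in both directions, at 2.66% (1.3 to 5.39%) and 4.24% (3.17 to 5.67%), against 3.46% over all. In the interferon list it was found in 4 of 9 OCI-AML3-only windows, 5 of 31 marked in both and 3 of 5 marked in neither. Among the genes of the list that also had a RefSeq window, the motif was found at the GENCODE end in 4 of 7 OCI-AML3-only genes, 4 of 20 marked in both and 3 of 5 marked in neither. At the RefSeq start of the same genes it was found in 7, 9 and 5, against 3.19% of all RefSeq windows. Motifs made of G and C move with CpG, and a match describes the letters only.

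The members' peaks were weak for their list. In Molm13, the peaks that marked Molm13-only genes had a median fold enrichment of 3.42 (quartiles 3.07 and 3.92), against 6.35 (quartiles 4.8 and 8.33) for genes marked in both lists, and 71 of the 263 had a q-value below 0.001 against 89.0% of the genes marked in both. In OCI-AML3 the corresponding medians were 2.78 (2.47 and 3.15) and 4.07 (3.45 and 4.73), and 53.0% and 95.8% of the genes had a marking peak with such a q-value. The peaks were also narrower, with median widths of 741 bp and 1895 bp in Molm13 and 884 bp and 2219 bp in OCI-AML3.

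**Figure D1:**
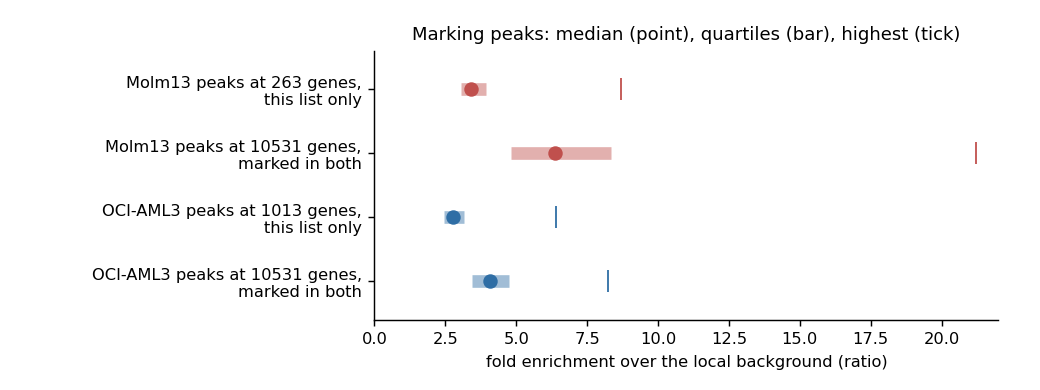
Fold enrichment over the local background (ratio, horizontal axis) of the peaks that marked genes in 1 list only or in both, with the median as a point, the quartiles as a bar and the highest value as a tick. In each list the median for genes marked in that list only (3.42 in Molm13 and 2.78 in OCI-AML3) lies below that for genes marked in both (6.35 and 4.07).

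The missing peak was often close by. The nearest peak of the other list lay within 5 kb of a TSS for 111 of 263 Molm13-only genes (42.2%) and for 314 of 1013 OCI-AML3-only genes (31.0%), while 35 (13.3%) and 163 (16.1%) genes had no peak of the other list within 50 kb of the gene. At the limit of 500 bp, SLC44A2 had its nearest Molm13 peak at 513 bp and so was no member, while PCDH9 (494 bp) was. TAS2R40 (a bitter taste receptor gene) had its nearest Molm13 peak at 492 bp and its nearest OCI-AML3 peak at 501 bp. PAQR4 was a member with Molm13 at 506 bp, and PKD1, with Molm13 at 493 bp, was not. LRRC37A, which had the strongest marking peak of the Molm13-only genes (fold 8.69), had an OCI-AML3 peak at 501 bp and belongs to a family of near-identical copies, where uniquely mapped reads are few.

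A stricter group was therefore drawn, in which the marking peak had a q-value below 0.001 and no peak of the other list lay within 5000 bp of any TSS of the gene. It held 30 Molm13-only and 344 OCI-AML3-only genes. The Molm13-only gene with the highest fold in it was NLRP2, a NOD-like receptor gene, with a peak of 909 bp over a TSS (chromosome 19, 54973431 to 54974339, fold 7.25, q-value 2.99e-11) and the nearest OCI-AML3 peak at 5641 bp. The zinc finger gene ZNF506 followed (chromosome 19, 19821151 to 19822057, fold 7.19), with OCI-AML3 at 21512 bp. Others were DNAAF3 (fold 5.76), which serves the assembly of ciliary dynein, MFAP4 (5.65), an extracellular matrix gene, TTC12 (5.40), OXER1 (5.38), a receptor for an oxidised fatty acid on granulocytes, ST8SIA6 (5.36), a sialyltransferase, the Wnt receptor FZD9 (5.32), DNAAF11 (5.22) and NBDY (5.21). TTC12 had 1 Molm13 peak and no OCI-AML3 peak within 50 kb, the nearest lying 206969 bp from its TSS.

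Among the stricter OCI-AML3-only genes, the adhesion receptor gene ADGRA3 led, with a peak of 3712 bp over a TSS (chromosome 4, 22475776 to 22479487, fold 4.50, q-value 3.49e-08) and the nearest Molm13 peak at 101538 bp. PCGF5, a subunit of Polycomb repressive complex 1, had fold 4.33. ABCD3 (4.32), a peroxisomal transporter, ZFP30 (4.28), a KRAB zinc finger gene, RNPEP (4.16), an aminopeptidase, and TESC (4.13) were marked in HL-60 and K562 as well. The olfactory receptor gene OR1G1 (4.28) lay under a peak of 5179 bp, and the homeobox gene MKX (4.23) under a peak of 26682 bp (chromosome 10, 27723270 to 27749951), with 7 OCI-AML3 and 0 Molm13 peaks within 50 kb. SEPTIN5 and the overlapping gene ENSG00000284874 shared a peak (4.16), and ZYG11B stood at 4.14.

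The other lines were not used by the rule. HL-60 marked 30 of the 263 Molm13-only genes, or 11.4% (Wilson 95% interval 8.11 to 15.8%), and 201 of the 1013 OCI-AML3-only genes, or 19.8% (17.5 to 22.4%), beside 44.8% of all genes. With the TSS inside the peak these HL-60 shares were 16.0% (12.3 to 20.5%) and 17.8% (15.7 to 20.0%), and the intervals overlapped. K562 marked 36.5% (30.9 to 42.5%) of the former and 54.7% (51.6 to 57.7%) of the latter. Both kinds of member lay far from the genes marked in both lists, of which HL-60 marked 81.2% and K562 90.6%, and above those marked in neither (2.14% and 12.4%). In K562 the OCI-AML3-only share was close to that of all genes (56.1%). K562 and OCI-AML3 share the vector treatment as well as any likeness in their chromatin, and the part of either was not tested. In the stricter group the shares were 16.7% (7.34 to 33.6%) and 28.5% (24.0 to 33.5%) in HL-60 and 56.7% (39.2 to 72.6%) and 62.5% (57.3 to 67.5%) in K562, so that the intervals of the 2 kinds overlapped there.

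The HOXB cluster held the longest run of neighbouring members with 1 status. From HOXB1 to HOXB9 (chromosome 17, 48528526 to 48633572), OCI-AML3 had 7 peaks that covered 30.9 kb, or 29.4% of its 105.0 kb, whereas Molm13 and HL-60 had 0 peaks and K562 had 10 that covered 49.0%. HOXB2, HOXB3, HOXB4, HOXB5, HOXB6 and HOXB7 were all marked in OCI-AML3 only. The OCI-AML3 folds were 2.75 at HOXB2, 2.98 at HOXB3 and HOXB4 (1 peak of 6742 bp), 2.84 at HOXB5 and HOXB6 (1 peak of 12182 bp) and 2.72 at HOXB7, and the nearest Molm13 peak lay between 87615 bp (HOXB7) and 176078 bp (HOXB2) away. These 6 genes are thus 4 peaks. The marking peaks of HOXB2, HOXB5 and HOXB6 did not reach a q-value below 0.001, and no TSS of HOXB7 lay inside its peak. Only the peak at HOXB3 and HOXB4 had a fold above the list median of 2.95. Of the 6 genes, K562 marked all but HOXB5, with its highest fold, 5.71, at HOXB2.

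In the HOXA cluster, on chromosome 7, both AML lines had wide peaks. HOXA3, HOXA7, HOXA9, HOXA10, HOXA11 and HOXA13 were marked in both. A single OCI-AML3 peak of 57053 bp (fold 4.42) covered the end of the cluster with HOXA9 and HOXA13, where Molm13 had 1 peak of 25378 bp (fold 7.42) and smaller ones. HOXA6 lay under the Molm13 peak and was marked in Molm13 only, with the edge of the OCI-AML3 peak at 527 bp from its TSS. HOXA4 was marked by a Molm13 peak of fold 3.72, with OCI-AML3 at 20350 bp. No gene of the HOXC and HOXD clusters (18 measured) was marked in either line. Of the HOX cofactor genes, 7 of 11 were marked in both.

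Of 46 interferon response genes measured, 31 were marked in both lines, 9 in OCI-AML3 only, 1 in Molm13 only and 5 in neither, beside 5.07% of all genes in OCI-AML3 only and 1.32% in Molm13 only. The 9 comprised IFIT1 and IFIT5, whose products bind foreign RNA, IFIT3 of the same family and the antiviral GTPase gene MX1. They also included OAS2 and OASL of the oligoadenylate synthetase family, the membrane protein genes IFI6 and IFITM1, and GBP4, a guanylate-binding protein gene. Their OCI-AML3 folds ran from 2.31 (GBP4) and 2.32 (OAS2) to 3.33 (OASL) and 3.59 (IFITM1), below the list median of 2.95 for all but IFIT3 (3.10), OASL and IFITM1. IFIT1, IFIT5 and OAS2 had no Molm13 peak within 50 kb, whereas IFITM1 had 6 and a Molm13 peak 1393 bp from its TSS. HL-60 marked IFIT3 and MX1, and K562 marked IFI6, IFIT1, IFIT3 and IFITM1. GBP5 was the only one marked in Molm13 only, with fold 3.04 and an OCI-AML3 peak 894 bp away.

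Of 44 cytokine and chemokine genes measured, 18 were marked in both lines, 5 in Molm13 only and 7 in OCI-AML3 only, beside the 1.32% and 5.07% of all genes. The Molm13-only genes were IL10, an anti-inflammatory cytokine (fold 4.45), CCL2, which attracts monocytes (3.96), CXCL16 (3.74), the epidermal growth factor receptor ligand AREG (3.42) and CCL22 (3.01). CXCL1, which attracts neutrophils, had the highest fold of the OCI-AML3-only genes (4.02, a peak of 7484 bp) and no Molm13 peak within 50 kb. It was followed by IL1B (3.19), IL18 (2.85) and CXCL10 (2.81), then by IL1A (2.52), HGF (2.43) and TGFB2 (2.35). CCL2 and AREG were also marked in HL-60 and K562, IL18 in both and IL1A in K562. IL10, CXCL16, CCL22, IL1B, IL18, CXCL10 and IL1A each had a peak of the other list within 5 kb of a TSS. None lay that near for CCL2, AREG, CXCL1, HGF and TGFB2.

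Of 41 monocyte receptor genes measured, 24 were marked in both lines, 2 in Molm13 only and 3 in OCI-AML3 only. Over all genes the shares were 52.7%, 1.32% and 5.07%. CLEC7A, the receptor for fungal glucans (fold 4.75), and LILRB2, an inhibitory receptor for class I molecules (3.31), were marked in Molm13 only, and the integrin genes ITGAM (3.04) and ITGAX (2.86) and the immunoglobulin receptor gene FCGR1A (3.15) in OCI-AML3 only. Except for LILRB2, whose nearest OCI-AML3 peak was 64975 bp away, each of these had a peak of the other list within 5 kb, at 828 bp (CLEC7A), 4594 bp (ITGAM), 1328 bp (ITGAX) and 597 bp (FCGR1A). FCGR1A has near-identical copies, so its call is uncertain. Of the granule and S100 genes, only S100A8 differed (OCI-AML3 only, fold 2.34, with Molm13 at 3720 bp).

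On the lists of myeloid, stem and progenitor, lymphoid and AP-1 transcription factors, the genes that differed were marked in OCI-AML3 only, which was also the larger side over all genes (5.07% against 1.32%). They were KLF2 (fold 3.50) among 30 myeloid factors, ERG (2.82) and LHX2 (2.47) among 29 stem and progenitor factors, SPIB (2.47) among 16 lymphoid factors, and JUN (3.45), MAFK (2.66) and BATF3 (2.38) among 14 AP-1 genes. ERG, LHX2 and JUN were far from a Molm13 peak, at 93900 bp, 71551 bp and 31122 bp, whereas KLF2, SPIB, BATF3 and MAFK each had one within 5 kb. JUN, a core AP-1 subunit, was marked in HL-60 (fold 6.36) and K562 (3.63) too, and Molm13 was the only one of the 4 lists without a call there.

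Of 22 cyclin and CDK genes measured, 19 were marked in both lines and 2 in OCI-AML3 only, beside 52.7% and 5.07% of all genes. The 2 were the cell cycle inhibitor genes CDKN2A (fold 3.43) and CDKN2B (3.35), which are neighbours, with Molm13 at 33621 bp and 19617 bp. HL-60 marked CDKN2A with fold 6.67, and the nearest K562 peak lay 1277420 bp from it. Of 35 chromatin regulator genes measured, 30 were marked in both lines and 3 in OCI-AML3 only, beside the same shares of all genes. The 3 were CBX2 (2.96), a Polycomb subunit, TET1 (3.06), which oxidises methylated cytosine, and MLLT3 (2.57), the partner in the Molm13 fusion. The remaining listed members on the OCI-AML3 side were the receptors IGF1R (3.06) and IL6ST (2.77), both also marked in HL-60 and K562, the stem cell antigen CD34 (2.54) and NCAM1 (2.85). On the Molm13 side they were EPHB4 (3.29), PCDH9 (3.20), PRAME (3.16), a tumour antigen gene also marked in HL-60 and K562, and the interleukin receptor gene IL2RA (3.06).

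**Figure D2:**
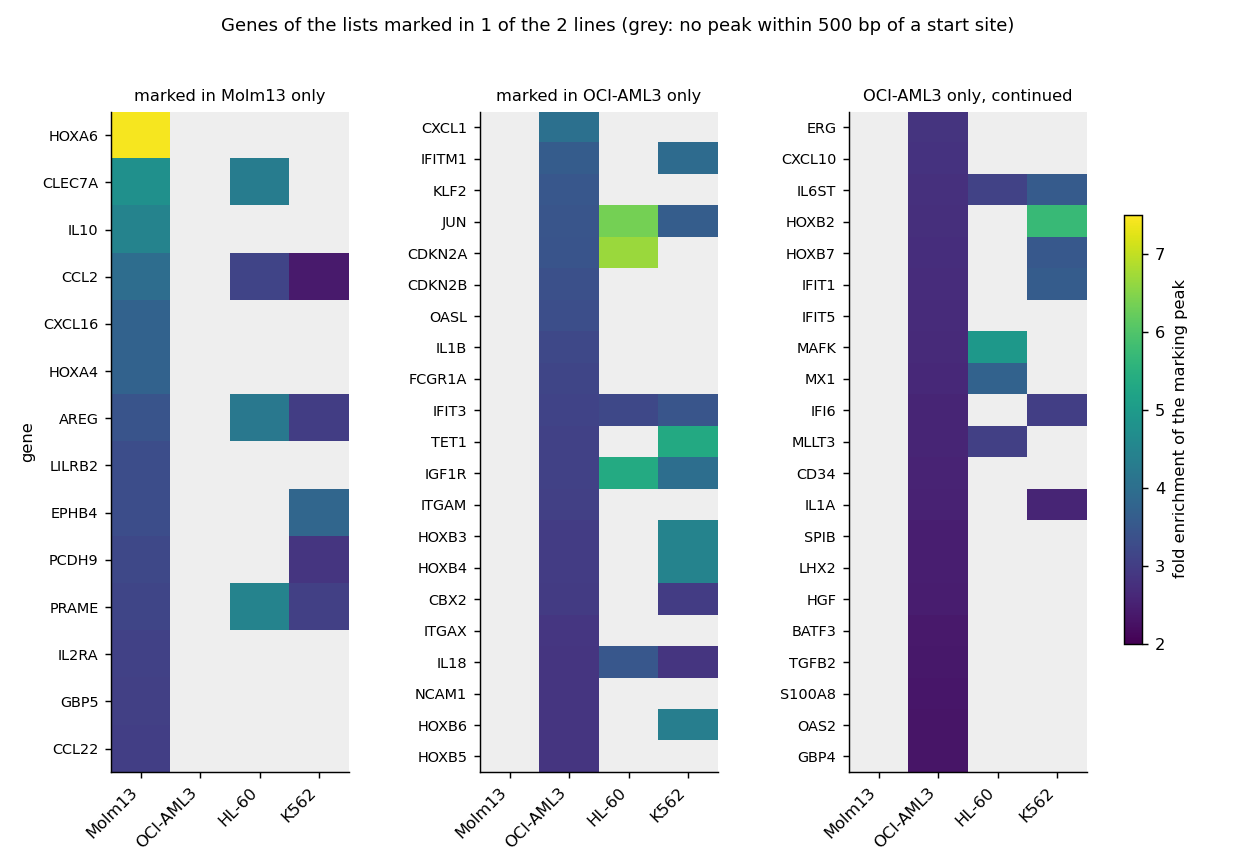
Fold enrichment (colour) of the marking peak in each of the 4 lines (columns) for the 14 listed genes marked in Molm13 only and 42 of the 44 marked in OCI-AML3 only (rows, sorted by fold), with grey where no peak lay within 500 bp of a TSS. Of the 42 genes, 9 are also coloured in HL-60 and 16 in K562, and of the 14 genes 4 and 5.

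Across the 24 lists together, 14 genes (2.49% of those measured) were marked in Molm13 only and 44 (7.83%) in OCI-AML3 only, beside 1.32% and 5.07% of all genes. HL-60 marked 4 and K562 5 of the 14, and 9 and 16 of the 44, while 8 and 24 were marked in neither. Lists without a member were, among others, the class I and class II antigen presentation genes, the primary granule genes and the BCL2 family.

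Peak counts per gene were alike in most genes, with equal counts in 37.0% and a difference of at most 2 in 87.5% of all genes. The median was 3.0 peaks in each line. The limit for the largest differences was 7 for more Molm13 peaks, which 0.13% of all genes reached, and 10 for more OCI-AML3 peaks, which 0.175% reached. Just outside were 35 genes with 6 more Molm13 peaks and 18 with 9 more OCI-AML3 peaks. These members were long genes, with a median length of 161.0 kb and 280.0 kb, respectively, against 27.5 kb for all genes, and a long window can hold a larger difference.

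Among the genes with more OCI-AML3 peaks, TBC1D5, a regulator of endosomal transport, led with 74 OCI-AML3 and 49 Molm13 peaks. TCF12, an E-protein transcription factor gene, had 38 and 14, and CSMD3, with no marked TSS in either line, 24 and 1. CPQ had 40 and 20, SGCZ 23 and 3, the cohesin loader gene NIPBL 22 and 4, DACH1 32 and 14, PHIP 22 and 7, PAN3 33 and 19, and RIMS2 16 and 2. The bases covered rose with the counts, from 33.8 kb in Molm13 to 74.1 kb in OCI-AML3 around TCF12 and from 9.46 kb to 43.2 kb around NIPBL. HL-60 and K562 had 0 peaks each near CSMD3, SGCZ and RIMS2.

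Toward Molm13, NCAM2, a cell adhesion gene, had 31 Molm13 and 18 OCI-AML3 peaks, FGD2, an activator of the GTPase Cdc42, 14 and 3, TRERF1 23 and 12, and PTGIS, the prostacyclin synthase gene, 11 and 2. SLC45A4 (20 and 11), RASA3 (19 and 10), ZDHHC14 (18 and 9), ARHGAP10 (14 and 5), COL23A1 (39 and 30) and CNTN4 (15 and 6) each differed by 9. CNTN4 was also marked at its TSS in Molm13 only (fold 3.05). Fewer peaks did not always mean fewer bases: the 30 OCI-AML3 peaks at COL23A1 covered 92.8 kb and the 39 Molm13 peaks 72.1 kb.

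**Figure D3:**
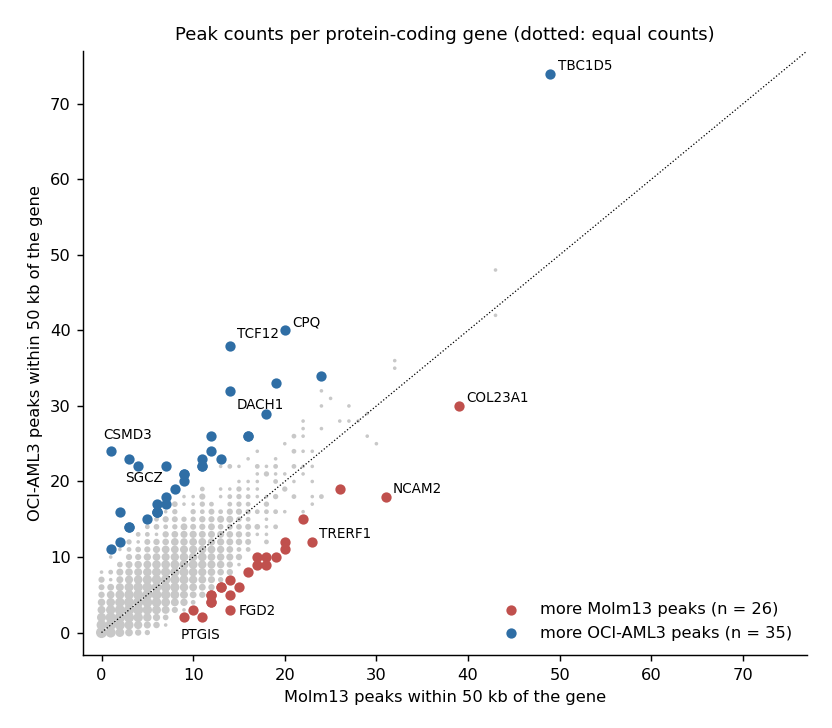
Number of Molm13 (horizontal) and OCI-AML3 (vertical) peaks within 50 kb of each protein-coding gene, with larger grey points where more genes share a pair of counts, the 26 genes with the most extra Molm13 peaks in red, the 35 with the most extra OCI-AML3 peaks in blue and equal counts on the dotted line. TBC1D5 (49 and 74) is the farthest from the line on the OCI-AML3 side and NCAM2 (31 and 18) on the Molm13 side.

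Chromosome and base composition moved with the peak counts. Chromosome 8 held 13 of the 35 genes with the most extra OCI-AML3 peaks, and 3.52% of all genes. This share depended on how peaks were counted, since chromosome 8 held 2 of the 25 leading genes by base pairs covered, 5 of 62 with q-values below 0.001 and 5 of 47 around the 5′ end. On it the lists gave 2359 OCI-AML3 and 1657 Molm13 peaks, a ratio of 1.42, the highest of the 23 chromosomes, whereas chromosome 19 had the lowest (0.872). At start sites chromosome 8 had the lowest share of OCI-AML3-only genes, at 2.85%. The windows of the genes with the most extra OCI-AML3 peaks had a median GC content of 38.8%, and 31 of the 35 fell in the lowest of 4 equal classes of all genes by GC content. Those with the most extra Molm13 peaks had 49.8%, and 14 of the 26 fell in the highest class. The median over all genes was 44.3%. The part of GC content and of chromosome 8 in the differences was not tested. At start sites the OCI-AML3-only share was alike in the lowest (4.93%) and the highest class (5.01%). The Molm13-only share was 1.14% in the lowest and 1.64% in the highest class.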

How the data were processed

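Chromatin immunoprecipitation with sequencing for H3K27ac was analysed in 1 library each of Molm13, OCI-AML3, HL-60 and K562. Per the study's methods and the labels, the authors trimmed reads with Trim Galore 0.4.5, aligned them to hg38 with Bowtie2 (2.3.4 per the labels), kept uniquely mapped reads, which lowers signal at near-identical copies, and called broad peaks per sample with MACS2 2.1.1 at q 0.05. The control library and the read depth are not given in the sources used here. The deposited lists give, for each peak, a fold enrichment (a ratio of pileup to local background) and the p-value and q-value as −log10 values. Of the peaks, 5.97% (Molm13), 5.47% (OCI-AML3), 15.0% (HL-60) and 5.62% (K562) had a q-value above 0.05 and were kept. The dCas9 list was not used.

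From these, 35069 Molm13 and 37531 OCI-AML3 peaks on chromosomes 1 to 22 and X were set against 146165 TSSs of 19970 protein-coding genes (GENCODE v44), with coordinates 1-based. The marking peak is the one nearest to any TSS of the gene, and the one with the highest fold where several are equally near. Members, gene lists and motifs were chosen with earlier results of these data known. Named genes were, for each direction, the 12 stricter members with the highest fold, all members on the gene lists, the 10 largest peak count differences with 1 gene per locus of overlapping windows, and up to 3 genes on each side of the 500 bp limit, of which some are given. A few genes that these rules select are not reported here. The printed promoter windows, with a RefSeq start site (GRCh38.p14), are those nearest to the marked TSS. For composition and motifs, windows were read from hg38 at the GENCODE 5′ end, and where that start was the same as in RefSeq, 6986 of 6986 windows were identical. RefSeq windows were found for 192 of 263 Molm13-only and 759 of 1013 OCI-AML3-only genes. Genes are not replicates, and no test was made. The code gave the same marked genes and counts as bedtools 2.31.1 and was tested on simulated data. Python 3.11.15, NumPy 2.4.6, pandas 2.3.3 and Matplotlib 3.10.9 were used.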

Additional observations from a re-analysis of the deposited data

How the results depend on the processing

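The OCI-AML3-only genes outnumbered the Molm13-only genes under all 8 alternatives, with 540 to 1402 against 73 to 340. The number of Molm13-only genes moved most, to 152 when absence was required within 5000 bp and to 73 when the marking peak needed a q-value below 0.001 and absence was judged on the whole list, under which OCI-AML3-only genes fell to 540. With that limit the share of Molm13-only genes marked in K562 was 43.8%, and of OCI-AML3-only genes it was 61.5% in K562 and 26.9% in HL-60. With q-values below 0.001 in every list the K562 shares were 43.0% and 57.8%, and with the TSS inside the peak the HL-60 share of Molm13-only genes was 16.0% against 17.8% of OCI-AML3-only genes. The HL-60 intervals of the 2 kinds overlapped there, with q-values below 0.001 in every list (9.75 to 18.7% and 17.0 to 21.1%), with absence within 5000 bp (9.76 to 20.9% and 17.5 to 23.5%) and with a marking q-value below 0.001 (7.61 to 23.4% and 23.3 to 30.7%), and those of K562 overlapped under none of the 8. Of the 263 and 1013 genes, 12 (4.56%) and 217 (21.4%) kept their status under all 8 alternatives, among them HOXB4, OASL, IFIT3, CXCL1, JUN, CDKN2A, TET1, CBX2, ERG, IL6ST and IGF1R, but none of the 14 listed Molm13-only genes. Of the 26 genes with the most extra Molm13 peaks, 17 were again among the top 25 with ties at 10 kb from the gene, 13 at 100 kb, 10 around the 5′ end, 6 by base pairs covered and 4 with q-values below 0.001. All 26 were again there with peaks within 1 kb merged and with equal list lengths. Of the 35 with the most extra OCI-AML3 peaks, 24 were again there at 10 kb from the gene and 26 at 100 kb. With peaks merged it was 27, and with equal list lengths 26. By base pairs covered 8 were again there, with q-values below 0.001 7 and around the 5′ end 5. The direction held for 35 of 35 by base pairs covered and 27 of 35 with q-values below 0.001, and for 23 and 16 of the 26, and the cause of these shifts was not tested. The share of windows with a low CpG ratio under 2 alternatives chosen after seeing the data was 62.2% and 31.9% (Molm13-only and OCI-AML3-only) with the status at the 5′ end alone and 49.0% and 27.5% with RefSeq windows. No paired analysis was possible because each line had 1 library.

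With 1 library per line and unknown depth, a gene without a peak is one without a call, not one shown to lack the mark. Only 71 of the 263 Molm13-only calls rested on a q-value below 0.001. Values of weak peaks, of near-identical gene copies and of genes within 5 kb of the other list's peak are the least certain. The vector treatment of OCI-AML3 and K562 cannot be told apart from the line.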

Other observations

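Neighbouring members formed several runs besides HOXB, which were picked out after their values were seen. The zinc finger genes ZNF350, ZNF615, ZNF614 and ZNF432 (chromosome 19, 51964340 to 52095738) were marked in OCI-AML3 only, with folds of 2.77, 3.14, 2.51 and 2.46 and the nearest Molm13 peak 42841 to 100501 bp away. All 4 were also marked in HL-60 and K562, and Molm13 was the only one of the 4 lists without a call there. Of 566 genes with a zinc finger symbol, a class chosen after its values were seen, 42 (7.42%) were marked in OCI-AML3 only and 5 (0.883%) in Molm13 only, beside 5.07% and 1.32% of all genes.

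The natural killer receptor genes KLRC4, KLRC3 and KLRC2, with the read-through gene KLRC4-KLRK1 and ENSG00000255641, formed a run of 5 on chromosome 12 (10372353 to 10442300), where KLRC4 and KLRC4-KLRK1 shared 1 peak (fold 3.10) and the Molm13 peaks lay 10786 bp or farther away. The KLRC genes are close copies of each other, so single calls are uncertain. The cytidine deaminase genes APOBEC3F (fold 2.80), APOBEC3G (2.61) and APOBEC3H (2.83) were marked in OCI-AML3 only, and APOBEC3F and APOBEC3G in K562 as well. The chemokine genes CXCL10 (2.81) and CXCL11 (2.90) lay in a run with ART3 (3.17), none of them marked in HL-60 or K562. The myeloid nuclear gene MNDA had the strongest marking peak on the OCI-AML3 side (fold 6.42, 7038 bp), with a Molm13 peak 1023 bp from its TSS, and was marked in HL-60. The gene NRXN2 was marked at a TSS in OCI-AML3 only while it had 10 Molm13 and 3 OCI-AML3 peaks within 50 kb.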
